A study of Mus musculus with 2 samples.

Results

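The fast and slow myofibre genes described here are 36 of the 55416 genes counted in each of 2 single-cell RNA libraries from mouse gastrocnemius muscle and lung. They were chosen by symbol for their known place in the contractile and energy machinery of skeletal muscle fibres. The rule uses no measured value, but the choice was made with earlier results of these data known. All 36 were found in both count tables. They comprise 4 adult myosin heavy chains, myosin light chains, fast and slow troponins, other filament and Z disc proteins, calcium handling proteins and muscle isoforms of energy metabolism.

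Both libraries came from TB mice of a model that the labels call the CAC mouse model, a series on muscle wasting and anti-PD-L1 treatment. The labels name no treatment, age, strain or number of mice for either library, the abbreviations were not interpreted, and no muscle of other mice was analysed here. Tissue was digested, red cells were lysed, and cells bearing CD45, the surface protein of leukocytes, were taken with magnetic beads before 5′ droplet sequencing. There was 1 library per tissue and so no replicate, and every interval below is an exact 95% interval for counting error only, without any p-value.

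A skeletal muscle fibre is a single syncytium with many nuclei, far larger than a droplet, and is not captured whole as a cell would be. Fibre types are told apart by the myosin heavy chain they carry: Myh7 in slow oxidative type 1 fibres, Myh2 in fast type 2A, Myh1 in fast type 2X and Myh4 in the fastest, glycolytic type 2B fibres. Troponins set the calcium response of the thin filament. Slow fibres carry a slow set of them and the fast types share a fast set. Mouse gastrocnemius is known as a mainly fast muscle.

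The genes of the 3 fast myosins lie one after another on chromosome 11, and Myh7 lies on chromosome 14. The windows of 250 bases before their annotated starts are shown because the fibre type of the RNA is read from these 4 genes. Sequences are from RefSeq on build GRCm38.p6, written 5′ to 3′ on the strand of the gene, and for Myh7, which has 2 entries, the first was used. Capitals mark E-boxes (CANNTG), MEF2 boxes, CArG boxes and the TATA motif TATAAA, found by letter matching on both strands.
Myh4, chr11:67237562-67237811, plus strand: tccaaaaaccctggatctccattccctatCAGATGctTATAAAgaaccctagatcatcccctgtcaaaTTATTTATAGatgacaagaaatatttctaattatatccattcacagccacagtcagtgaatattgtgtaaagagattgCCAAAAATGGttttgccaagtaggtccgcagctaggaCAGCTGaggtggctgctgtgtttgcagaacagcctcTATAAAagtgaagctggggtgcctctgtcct
Myh1, chr11:67199852-67200101, plus strand: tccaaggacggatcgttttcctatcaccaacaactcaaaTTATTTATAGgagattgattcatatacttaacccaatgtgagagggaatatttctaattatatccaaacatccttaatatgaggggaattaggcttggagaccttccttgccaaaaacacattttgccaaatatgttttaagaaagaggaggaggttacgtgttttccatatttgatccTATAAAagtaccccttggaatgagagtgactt
Myh2, chr11:67170777-67171026, plus strand: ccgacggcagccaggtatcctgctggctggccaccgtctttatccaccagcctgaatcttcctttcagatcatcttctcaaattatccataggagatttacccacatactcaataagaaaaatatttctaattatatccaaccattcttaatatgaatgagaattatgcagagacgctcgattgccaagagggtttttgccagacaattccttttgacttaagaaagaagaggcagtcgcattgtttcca
Myh7, chr14:54994627-54994876, minus strand: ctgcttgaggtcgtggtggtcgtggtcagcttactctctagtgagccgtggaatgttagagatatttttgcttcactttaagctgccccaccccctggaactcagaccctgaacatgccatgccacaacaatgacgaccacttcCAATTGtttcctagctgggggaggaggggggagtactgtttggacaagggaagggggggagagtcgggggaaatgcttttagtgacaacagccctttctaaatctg
Nearest the start, TATAAA stood 31 bases before the start in Myh4 and 32 bases before it in Myh1, and none was found in the windows of Myh2 and Myh7. A MEF2 box stood in Myh4 and in Myh1, where it overlapped a TATAAA read on the other strand. Myh4 also held 2 E-boxes and the only CArG box, and Myh7 held 1 E-box. Among all 32851 windows of the same length 66.2% held an E-box, 12.4% TATAAA, 2.92% a MEF2 box and 1.47% a CArG box, and a match or its absence describes letters in this window, not binding. RefSeq windows were matched for 26 of the 36 genes.

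The fast myosins are near-identical over parts of their length, so the counting could have split their reads. In their longest GENCODE M21 transcripts, of 6016 to 6230 bases, 3.54% of the 90-base windows of Myh4, 10.96% of those of Myh1 and 9.96% of those of Myh2 recurred in another of the 4, and none of Myh7. Within the first 500 bases, the end that a 5′ library reads, none of the windows of any of the 4 was shared. The read length and the treatment of multi-mapped and intronic reads are not given in the sources used here.

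Muscle was read in 5547 barcodes with 14056163 UMIs, a median of 1716 per barcode, and lung in 8481 barcodes with 34751225 UMIs, a median of 2252. Mitochondrial (mt-) genes took over 10% of UMIs in 3301 muscle barcodes (59.5%) and in 273 lung barcodes (3.22%). The 3301 are called mt-high and the other 2246 muscle barcodes mt-low. Levels are counts per 1000000 UMIs of genes other than mt- genes (CPM), which count molecules and were not divided by length. The mt-high barcodes were shallow, with a median of 338 genes against 1447.5 in mt-low barcodes. The libraries shared 64 barcode sequences, of which 25 were kept muscle cells, and without them the endothelial-like level given below was 1134 CPM, against 1135 CPM with them. Kept cells had at least 200 genes and at most 10% mt- UMIs and were no called doublets, which left 2143 muscle and 7638 lung cells. Against the CD45 label, 1192 of the kept muscle cells were endothelial-like with Ptprc, the CD45 gene, in 0.419% of them. Ptprc was in 91.2% of the 114 conventional DC2-like, 80.6% of the 134 macrophage-like and 88.1% of the 59 neutrophil-like muscle cells.

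Myofibre RNA reached nearly every muscle barcode. The 36 genes took 42717 muscle UMIs, 0.374% of the non-mt total, and at least 1 of these was read in 94.7% of muscle barcodes. In lung they took 2638 UMIs, 0.00775% of the non-mt total, in 15.9% of barcodes. The 4 genes with the most muscle UMIs were Ttn with 8892, Acta1 with 6386, Myh4 with 3907 and Ckm with 2999. Myh4, Myh1 and Myh2 were at 0 in the whole lung library, where 3 counts would be 0.0881 CPM, and Myh7 had 3 counts there.

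The summed myofibre level was higher in mt-high than in mt-low muscle barcodes. It was 9181 CPM in mt-high barcodes, against 2215 CPM in mt-low barcodes, a log2 ratio of 2.05 (2.02 to 2.08). The share of a barcode's non-mt UMIs ran from 0% through a median of 0.728% to 37.7% in mt-high barcodes, against 0% through 0.0927% to 32.5% in mt-low barcodes. The extremes overlapped but the quartiles did not, at 0.312 to 2.34% in mt-high barcodes, against 0.0457 to 0.173% in mt-low barcodes. At 500 UMIs drawn from each barcode, 81.3% of mt-high and 40.2% of mt-low barcodes still held a myofibre UMI. The unthinned shares were 95.7% of mt-high and 93.1% of mt-low barcodes, from medians of 1212 UMIs per mt-high and 3101.5 UMIs per mt-low barcode.

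The median share rose over each range of mt- UMIs. Over ranges of 0 to 5, 5 to 10, 10 to 20, 20 to 30, 30 to 50 and 50 to 100% mt- UMIs, the median share per muscle barcode was 0.0628, 0.142, 0.316, 0.602, 1.02 and 4.46%. The summed level over the same ranges was 2375, 1865, 3860, 6454, 11154 and 44322 CPM, with a lower second than first value while the 1 barcode described next was in, and 805 CPM in the first range without it. In lung the median was 0% in all 6 ranges and the summed level lay between 66.5 and 164 CPM. Barcodes with over 5% of non-mt UMIs from the 36 genes numbered 518 among mt-high barcodes (15.7%), 6 among mt-low barcodes and none in lung. The 518 were nearly all mitochondrial, with a median of 94.4% mt- UMIs and 65 genes. The ribosomal RNA Rn18s moved with the same ranges, at 49882, 55682, 83198, 113920, 152320 and 209720 CPM. The nuclear RNA Malat1 stood at 6690, 11946, 12729, 10947, 8440 and 7112 CPM. The part of RNA quality in the myofibre level was not tested. A share alone cannot tell a muscle barcode with fewer cell molecules from one with more fibre molecules, since both raise it. In counts the 2 groups were closer, with a median of 4 myofibre UMIs per mt-high and 3 per mt-low barcode. Summed, mt-high barcodes held 22942 myofibre UMIs among 2498893 non-mt UMIs, and mt-low barcodes 19775 among 8928285.

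**Figure D1:**
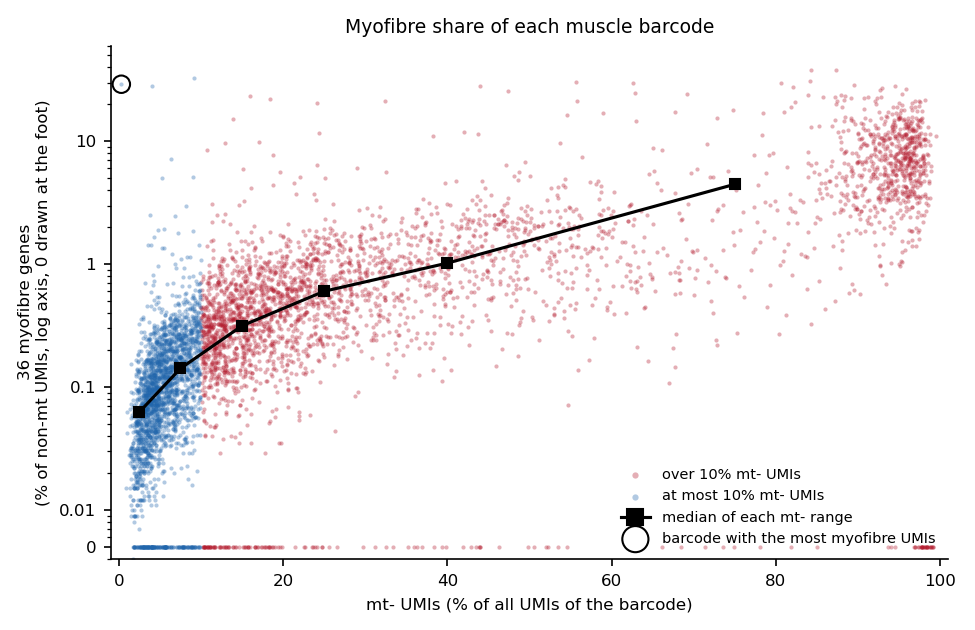
Each point is 1 muscle barcode, with its mt- UMIs in percent of all UMIs on the x axis and the 36 genes in percent of its non-mt UMIs on a log y axis, mt-high barcodes in red and mt-low in blue. Black squares join the medians of the 6 mt- ranges, from 0.0628% to 4.46%, and the open circle at the top left is the barcode with 29.1% myofibre UMIs and 0.303% mt- UMIs.

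A single mt-low barcode carried much of the signal on its side. It held 33281 UMIs and 3314 genes at 0.303% mt-, and 9640 of its UMIs came from the 36 genes, 22.6% of those in the muscle library and 48.7% of those in mt-low barcodes. Acta1, skeletal alpha-actin, gave 3910 of them, the fast light chain Mylpf 1101 and the fast troponin Tnnt3 597. The giant sarcomere genes were almost missing there, with 5 UMIs of Ttn, 3 of Neb and 0 of the calcium release channel Ryr1. Of the myosins it held 8 UMIs of Myh2, 2 of Myh4 and 0 of Myh1 and Myh7, and it held 69 of the 78 muscle UMIs of Sln. Clustering, which used none of the 36 genes, put it in the fibroblast-like class, but Pdgfra, Dcn, Col1a1, Ptprc and Pecam1 were all at 0, as were Pax7, Myog and Myh3, and Malat1 had 1 UMI. Genes with transcripts over 5000 bases gave 0.519% of its myofibre UMIs, against 47.3% in the 518 myofibre-rich mt-high barcodes. It was not alone in this. The next 2 barcodes by myofibre UMIs, with 686 and 392, were also mt-low, at 4.02% and 9.11% mt-. The 36 genes gave 27.9% and 32.5% of their non-mt UMIs, and the long transcripts 2.62% and 1.79% of these. They held 5 and 1 UMIs of Ttn and stayed in when the 1 barcode was left out. Because of the weight of the 1 barcode, the main results are given with it and without it, an alternative chosen after seeing the data. Some ratios of single genes are given only with the 1 barcode. Without it the mt-low level was 1139 CPM and the log2 ratio of mt-high to mt-low barcodes 3.01 (2.98 to 3.04).

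Gene by gene, a call of higher or lower asked for at least 10 counts over both sides, a ratio of at least 2 in that direction and an interval that left out 1. By this rule 26 of the 36 genes were higher in mt-high barcodes, 1 (Sln) was lower and 9 were neither, where 4.63% of the 16085 genes tested were higher and 11.2% lower. Without the 1 barcode 34 of 35 genes with enough counts were higher, against 4.81% of all genes, and only Myh7 among them was not called. Without the 518 mt-high and 6 mt-low barcodes over 5% myofibre 33 of 35 were higher, against 4.84% of all genes, and Myh7 and Tnnt1 were not called. The median log2 ratio of the 36 genes was 1.88, against -0.08 over all genes tested, and without the 1 barcode 2.81, against -0.08. Markers of other cell types were called lower more often than higher. Of 102 markers tested over 20 cell type lists 8 were higher and 45 lower in mt-high barcodes, with all 7 macrophage markers lower. The 8 include Cox6a2, itself 1 of the 36 genes, which is on the plasmacytoid dendritic cell list. Endothelial markers summed to 4311 CPM in mt-high barcodes and 3313 CPM in mt-low barcodes, with 0 of 8 called. The 5 haemoglobin and erythroid markers, all of them called higher, summed to 2671 CPM in mt-high barcodes and 894 CPM in mt-low barcodes. Markers of heart muscle summed to 16.4 CPM in mt-high and 10.8 CPM in mt-low barcodes against 26.4 CPM in lung, with Myh6, Mybpc3, Nppa and Myl7 at 0 in mt-high barcodes.

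**Figure D2:**
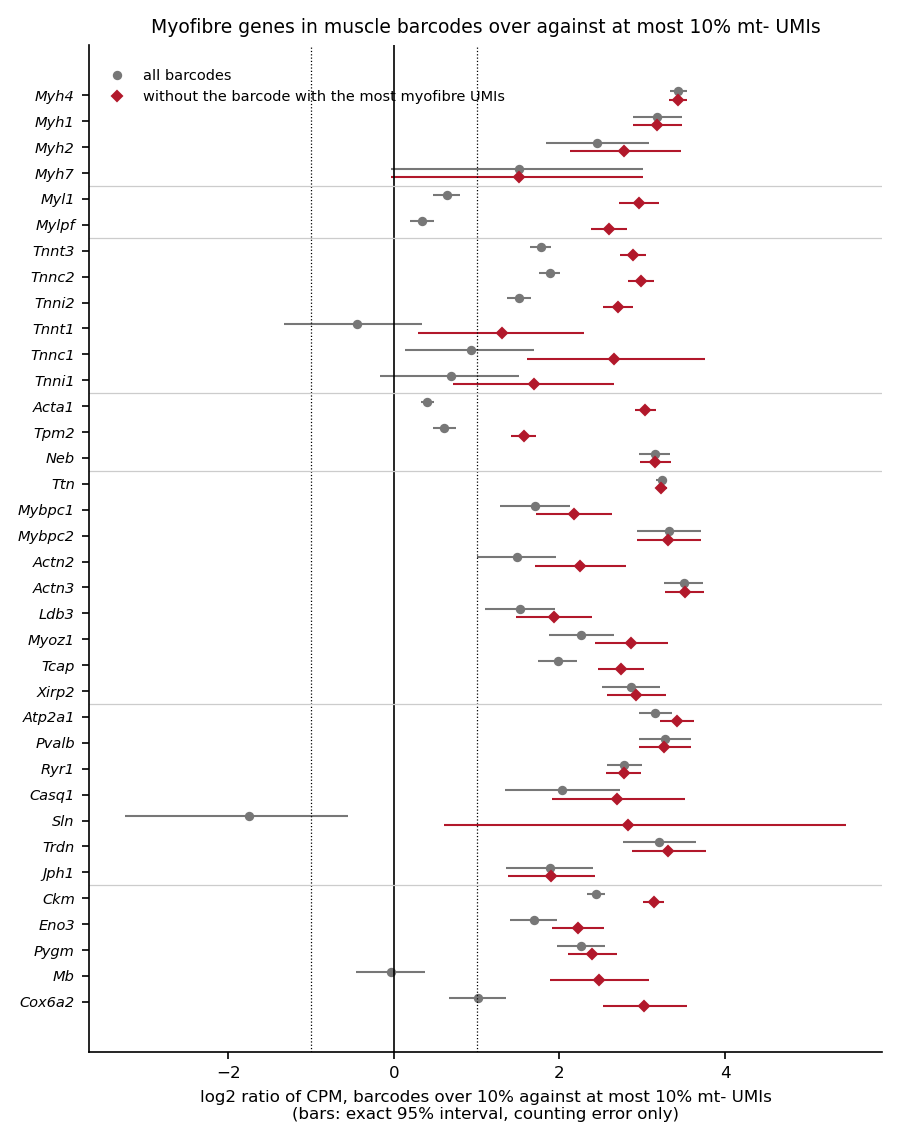
The log2 ratio of each gene in mt-high against mt-low muscle barcodes, with exact 95% intervals, over all barcodes (grey circles) and without the 1 barcode with the most myofibre UMIs (red diamonds). Dotted lines mark a ratio of 2 either way, grey lines part the roles, and without that barcode the ratios lie between 1.31 (Tnnt1) and 3.51 (Actn3).

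Of the myosin heavy chains, the motors of the thick filament, all 3 fast ones were higher in mt-high barcodes with and without the 1 barcode. Myh4 (type 2B) stood at 1175 CPM in mt-high barcodes from 2937 counts, against 109 CPM in mt-low barcodes from 970 counts, a log2 ratio of 3.44 (3.33 to 3.54). Myh1 (type 2X) stood at 137 CPM in mt-high and 15.1 CPM in mt-low barcodes, a log2 ratio of 3.18 (2.89 to 3.48). Myh2 (type 2A) stood at 23.2 CPM in mt-high and 4.26 CPM in mt-low barcodes, a log2 ratio of 2.45 (1.83 to 3.08), or 2.78 without the 1 barcode. The order of the 3 levels, from transcripts of like length, was the same on both sides. Myh7, the slow myosin, had 8 counts in mt-high and 10 in mt-low barcodes, a log2 ratio of 1.52 (-0.03 to 3.01), so a difference was not detectable at this depth.

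The light chains and troponins depended on the 1 barcode, which held much of their mt-low counts. Myl1, a fast essential light chain, stood at 181 CPM in mt-high and 116 CPM in mt-low barcodes, or 23.4 CPM without that barcode. Mylpf, the fast regulatory light chain, stood at 197 CPM in mt-high and 156 CPM in mt-low barcodes, or 32.6 CPM without it. Neither was called with the barcode in, and both were called higher without it, at log2 ratios of 2.95 and 2.60. The fast troponins were called either way. Troponin T (Tnnt3), which anchors the complex to tropomyosin, stood at 422 CPM in mt-high and 124 CPM in mt-low barcodes, or 56.9 CPM without the barcode. Troponin C (Tnnc2), the calcium sensor, stood at 435 CPM in mt-high and 118 CPM in mt-low barcodes, or 54.9 CPM without it. Troponin I (Tnni2), the inhibitor, stood at 283 CPM in mt-high and 99.1 CPM in mt-low barcodes, or 43.5 CPM without it. All 3 slow partners were scarce. Tnnt1 had 16 mt-high and 78 mt-low counts, Tnnc1 had 23 mt-high and 43 mt-low counts, and Tnni1 had 19 mt-high and 42 mt-low counts. Of the mt-low counts the 1 barcode held 55 of Tnnt1, 30 of Tnnc1 and 21 of Tnni1. None of these slow genes was called with it, and all 3 were called higher without it, at log2 ratios of 1.31 for Tnnt1, 2.65 for Tnnc1 and 1.69 for Tnni1.

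Among thin filament genes, Acta1 stood at 691 CPM in mt-high and 522 CPM in mt-low barcodes, or 84.3 CPM without the 1 barcode. Its log2 ratio was 0.40 (0.32 to 0.48) with the barcode and 3.03 (2.91 to 3.16) without it. Tpm2, the beta-tropomyosin that smooth muscle also makes, stood at 259 CPM in mt-high and 170 CPM in mt-low barcodes, or 87.6 CPM without it, a log2 ratio of 1.57 (1.41 to 1.72) then. Neb, the giant nebulin that spans the thin filament, stood at 338 CPM in mt-high and 38.1 CPM in mt-low barcodes, with a log2 ratio of 3.15 with the barcode and 3.16 without.

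Titin, the myosin-binding proteins C and the Z disc genes were all called higher, with and without the 1 barcode. Ttn, the titin spring that runs from Z disc to M band, stood at 2579 CPM in mt-high and 274 CPM in mt-low barcodes, a log2 ratio of 3.23 (3.17 to 3.30). Actn3, the alpha-actinin of fast glycolytic fibres, stood at 249.7 CPM in mt-high and 22.1 CPM in mt-low barcodes, and Actn2, the alpha-actinin of all fibres, at 27.2 CPM in mt-high and 9.74 CPM in mt-low barcodes. With the 1 barcode in, their log2 ratios were 3.5 (3.27 to 3.74) and 1.48 (1.00 to 1.96). These were then the highest of all 36 genes and the lowest of those in this paragraph. That mt-low barcode held 36 of the 155 muscle UMIs of Actn2 but 2 of the 821 of Actn3, which widened the gap. Mybpc2, the fast myosin-binding protein C, stood at 87.2 CPM in mt-high and 8.74 CPM in mt-low barcodes, and the slow Mybpc1 at 37.6 CPM in mt-high and 11.5 CPM in mt-low barcodes. With the 1 barcode in, the log2 ratio was 3.32 (2.94 to 3.71) for the fast and 1.71 (1.29 to 2.12) for the slow protein. These intervals did not overlap, and the barcode held 29 of the 197 muscle UMIs of Mybpc1 and 0 of Mybpc2. Without it Mybpc2 stood at 5.58 CPM and Mybpc1 at 6.08 CPM in the range of 0 to 5% mt-. In the range of 50 to 100% mt- Mybpc2 stood at 409 CPM (332 to 498) and Mybpc1 at 74.3 CPM (44.1 to 117.5). Xirp2, an actin-binding protein of the muscle-tendon junction, had a log2 ratio of 2.86, the Z disc protein Myoz1 2.26, the titin cap Tcap 1.98 and the Z disc scaffold Ldb3 1.52. These too are with the 1 barcode, which held 34 of the 232 muscle UMIs of Myoz1, 119 of the 606 of Tcap and 27 of the 193 of Ldb3.

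Calcium handling genes followed. Atp2a1, the fast calcium pump SERCA1, stood at 309 CPM in mt-high and 34.6 CPM in mt-low barcodes, a log2 ratio of 3.16 (2.97 to 3.35). Pvalb, the calcium buffer parvalbumin of the fastest fibres, stood at 128 CPM in mt-high and 13.2 CPM in mt-low barcodes, a log2 ratio of 3.27 (2.96 to 3.59), and the 1 barcode held none of it. Ryr1 stood at 219 CPM in mt-high and 31.9 CPM in mt-low barcodes, a log2 ratio of 2.78 (2.57 to 2.99). The triad proteins Trdn, Casq1 and Jph1 had log2 ratios of 3.20, 2.03 and 1.88 and were called higher. For Casq1 that includes the 1 barcode, which held 13 of its 75 muscle UMIs. Sln, sarcolipin, which inhibits the calcium pump, had 6 mt-high and 72 mt-low counts, of which the 1 barcode held 69, and without it 9 counts were too few for a call. The energy genes Ckm, the muscle creatine kinase, Pygm, the glycogen phosphorylase, and Eno3, the muscle enolase, were called higher at log2 ratios of 2.44, 2.25 and 1.69. Those ratios include the 1 barcode, which held 456 of the 2999 muscle UMIs of Ckm, 17 of the 411 of Pygm and 68 of the 417 of Eno3. Cox6a2, a muscle subunit of cytochrome oxidase, was called at 1.02 (0.67 to 1.36), and 3.02 without the 1 barcode. Mb, myoglobin, the oxygen store of oxidative fibres, stood at 25.6 CPM in mt-high and 26.2 CPM in mt-low barcodes. Of its 234 mt-low counts 193 lay in the 1 barcode, and its log2 ratio without that barcode was 2.47 (1.89 to 3.08).

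Without the 1 barcode a rise over mt- ranges was seen in genes of several roles. The highest level of 35 of the 36 genes lay in the range of 50 to 100% mt-, with Myh7 as the exception, and 24 rose at each of the 5 steps. How many of all genes did so was not counted. In that last range Tnnt1 had 2 counts, Sln 3, Tnni1 4 and Tnnc1 6, too few to place their highest level. Myh4 stood at 66.7, 200.3, 452, 784, 1321 and 6150 CPM over the 6 ranges, and Ttn at 171, 499, 1096, 1875, 3074 and 12337 CPM. Acta1 stood at 67.3, 121, 238, 398, 846 and 3816 CPM. Across the 36 genes the log2 ratio went with transcript length while the 1 barcode was in (Pearson 0.56, Spearman 0.55) and hardly without it (0.16 and 0.15). These are descriptions over genes that share libraries and depth.

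Most adult myosin UMIs in muscle were those of the type 2B gene. Of 4499 UMIs of the 4 adult myosins Myh4 gave 3907, or 86.8% (85.8 to 87.8), Myh1 478, or 10.6% (9.74 to 11.6), Myh2 96, or 2.13% (1.73 to 2.60), and Myh7 18, or 0.400% (0.237 to 0.632). No neighbours in this order had overlapping intervals. In mt-high barcodes the Myh4 share was 87.8% (86.6 to 88.9), against 84.1% (81.9 to 86.2) in mt-low barcodes. The Myh2 share was 1.73% (1.32 to 2.24) in mt-high barcodes, against 3.30% (2.34 to 4.50) in mt-low barcodes, or 2.62% (1.78 to 3.73) without the 1 barcode. Over the 6 mt- ranges the Myh4 share was 81.4, 86.2, 80.6, 84.4, 86.3 and 92.8%. Only the last range stood above the rest, with an interval of 91.5 to 94.0 that overlapped no other.

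The troponins, shorter genes, were mostly of the fast set, which does not tell types 2A, 2X and 2B apart. Of the paired troponin UMIs 5893 were fast and 221 slow, a fast share of 96.4% (95.9 to 96.8), and 97.4% (96.8 to 97.8) without the 1 barcode. The fast share was 98.0% (97.4 to 98.5) in mt-high barcodes, against 94.9% (94.1 to 95.7) in mt-low barcodes and 96.0% (94.9 to 97.0) in those without the 1 barcode. Over the mt- ranges it was 94.5, 96.2, 95.8, 97.2, 99.3 and 99.1%.

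Most barcodes with at least 10 myosin UMIs held a single myosin. A myosin UMI was read in 2504 muscle barcodes (45.1%), Myh4 in 2233, Myh1 in 424, Myh2 in 69 and Myh7 in 17. At least 10 were read in 30 barcodes, 28 of them mt-high, with a median of 73.8% mt- UMIs. In 27 of the 30 Myh4 led, and in 26 of these every myosin UMI was Myh4, up to 37 of 37. The exceptions were a barcode with 9 Myh4 and 4 Myh1 UMIs, and 1 in which Myh1 led with 8 UMIs over 5 of Myh4. In another mt-high barcode Myh2 led with 12 UMIs over 6 of Myh1 and 0 of Myh4, beside 54 UMIs of Ttn, 8 of the slow Mybpc1 and 0 of Acta1, Actn3 and Mybpc2. The last was the 1 barcode of 9640 myofibre UMIs, with 8 Myh2 and 2 Myh4. None of the 30 was led by Myh7.

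**Figure D3:**
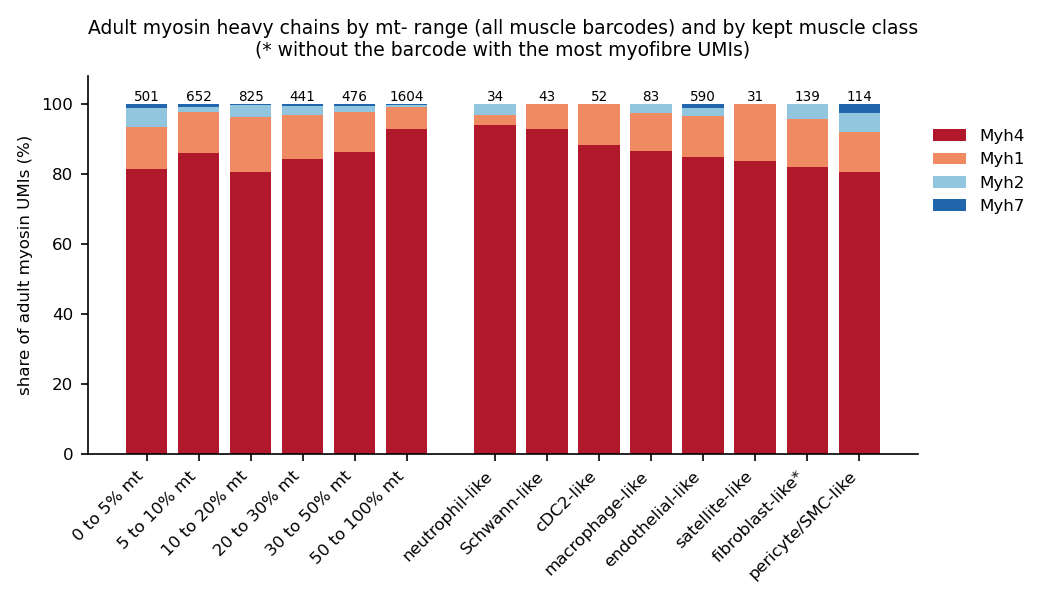
Bars give the share of the UMIs of the 4 adult myosins in percent for all muscle barcodes by mt- range (left) and for the 8 kept muscle classes (right), with the number of myosin UMIs above each bar. Myh4 gave from 80.6% to 92.8% of UMIs over the mt- ranges and from 80.7% to 94.1% over the classes, the fibroblast-like class being drawn without the 1 barcode.

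Myofibre UMIs were read in each of the 8 kept muscle classes of at least 20 cells, in 90.5% to 98.6% of the cells. Pericyte- or smooth muscle-like cells had the highest summed level, 2354 CPM (2231 to 2482). Of their 1371 myofibre UMIs 416 were Tpm2, which smooth muscle also makes, so this rank leans on 1 gene. Satellite-like cells, named by markers of the stem cells of muscle, had 1645 CPM (1453 to 1856) and Schwann-like cells 1402 CPM (1253 to 1563). Endothelial-like cells had 1135 CPM (1100 to 1170), neutrophil-like cells 819 CPM (701 to 952), macrophage-like cells 682 CPM (630 to 736) and conventional DC2-like cells 382 CPM (348 to 419). Fibroblast-like cells had 8069 CPM with the 1 barcode and 864 CPM (814 to 916) without it. In that order the fibroblast-like and neutrophil-like levels and the neutrophil-like and macrophage-like levels had overlapping intervals, as had the satellite-like and Schwann-like levels. The deepest class had the lowest level, with a median of 10698.5 UMIs in conventional DC2-like cells, where endothelial-like cells had 2698. At 500 UMIs per cell 19.3% of conventional DC2-like, 26.1% of macrophage-like, 43.4% of endothelial-like and 52.7% of pericyte- or smooth muscle-like cells held a myofibre UMI. A further 6 kept muscle cells of no named class had 95719 CPM, and the 4 of them with at most 5% myofibre UMIs had 1682 CPM.

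The lung classes give the background. Muscle cells were above lung cells by a log2 ratio of 4.86 (4.80 to 4.92) over all kept cells, and by 3.86 without the 1 barcode. All 36 genes were called higher in muscle, where 24.4% of the 19520 genes tested were. Without the 1 barcode 31 of 35 were, again against 24.4% of all genes, and Tnnt1, Tnnc1, Eno3 and Cox6a2 were not. Myh4 was at least 1095-fold and Pvalb at least 134-fold higher in muscle, set against 3 counts over all kept lung cells, where both were at 0. Endothelial-like cells had 1135 CPM in muscle, against 29.6 CPM in lung, a 38.3-fold difference (21.4 to 76.8), although most of the class lay in different clusters in muscle and in lung. Neutrophil-like cells had 819 CPM in muscle, against 34.5 CPM in lung, a 23.7-fold difference (19.3 to 29.2), and macrophage-like cells 682 CPM in muscle, against 44.0 CPM in lung, 15.5-fold (13.6 to 17.6). Muscle macrophage-like cells were split almost evenly over a Cd163 cluster of 70 and a Ccl24 cluster of 64 cells, whereas 991 of the 1177 lung cells lay in the Ccl24 cluster. Muscle neutrophil-like cells lay mostly in a Retnlg cluster, with 48 of 59, while the 2605 lung cells were spread over that cluster (1037) and others of 815, 530 and 223 cells. Fibroblast-like cells without the 1 barcode had 864 CPM in muscle, against 417 CPM in lung, 2.07-fold (1.74 to 2.48). Of the 146 lung UMIs behind that level 133 were Tpm2, and 55 of the 56 lung cells lay in a Clec3b cluster that held 131 of the muscle cells, the other 99 and 46 lying elsewhere.

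The conventional DC2-like class is given without a fold, because its cells differed between the tissues. Its level was 382 CPM in muscle and 371 CPM in lung, but at clustering resolution 2 it held 101 conventional DC2-like and 11 conventional DC1-like muscle cells, and 17 conventional DC2-like and 101 conventional DC1-like lung cells. In this split, made after seeing the data, the conventional DC2-like cells had 338 CPM (304 to 375) in muscle, against 53.0 CPM (21.3 to 109) from 7 counts in lung. The conventional DC1-like cells had 695 CPM (547 to 871) in muscle, against 420 CPM (380 to 462) in lung. Neither pair of intervals overlapped, unlike those of the undivided class. Of the 415 myofibre UMIs of the conventional DC1-like lung cells 157 were Cox6a2, in 13 cells, and 118 were Tnni2. Cd209a, a conventional DC2 marker, had a UMI in 23 of these 101 lung cells and in 0 of the 11 muscle cells. With just 11 muscle cells, whether the conventional DC1-like cells differed between the tissues too was not settled.

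**Figure D4:**
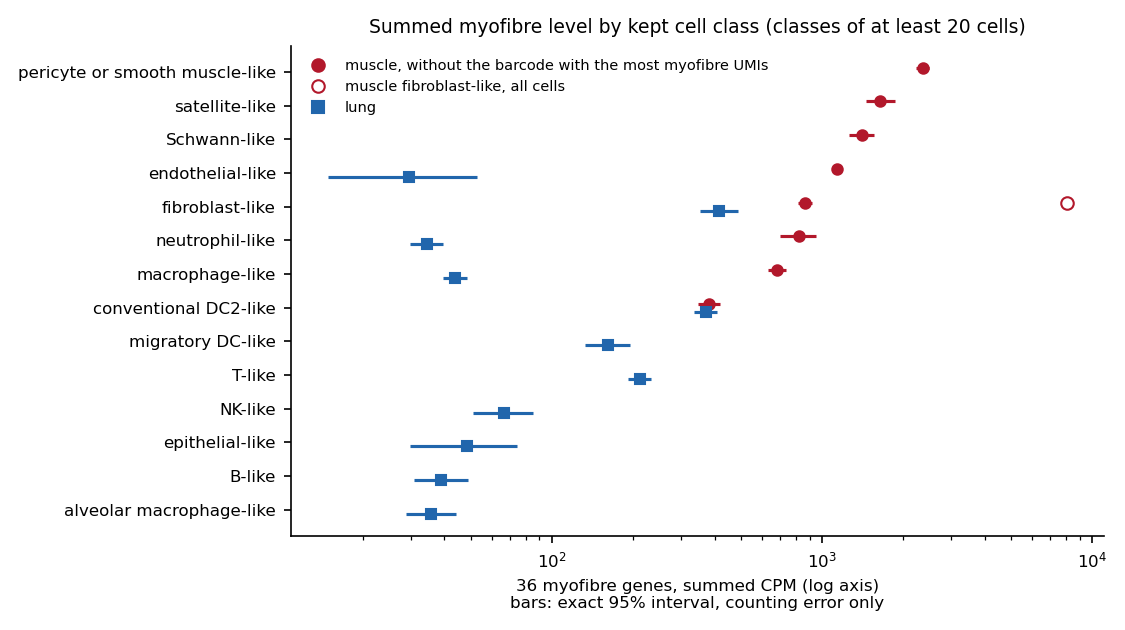
Summed CPM of the 36 genes on a log axis, with exact 95% intervals, for kept classes of at least 20 cells in muscle (red circles) and lung (blue squares). Muscle levels run from 382 to 2354 CPM without the 1 barcode, whose class with it is the open circle at 8069 CPM, and only the conventional DC2-like class, mostly DC2-like cells in muscle and DC1-like cells in lung, has muscle and lung levels with overlapping intervals.

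The mix of myofibre genes in most muscle classes resembled that of the mt-high barcodes. Over the 36 genes the Spearman correlation of a class's counts with those of the mt-high barcodes was 0.977 in endothelial-like, 0.952 in fibroblast-like cells without the 1 barcode and 0.917 in macrophage-like cells. It was 0.867 in conventional DC2-like, 0.863 in pericyte- or smooth muscle-like, 0.812 in neutrophil-like, 0.801 in Schwann-like and 0.706 in satellite-like cells. In lung classes of at least 20 cells it lay between -0.225 and 0.364. The Myh4 share of myosin UMIs lay, without the 1 barcode, between 80.7% (72.3 to 87.5) in pericyte- or smooth muscle-like and 94.1% (80.3 to 99.3) in neutrophil-like cells, and the 8 intervals overlapped one another.

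A gene stood off this common mix when its count in a class was at least 4 times above or below that expected from the other muscle classes, with an interval beyond 2 and at least 30 counts observed or expected. By this rule 9.57% of 94 pairs of gene and class were higher and 20.2% lower with all cells in, 28 pairs in all. Without the barcode 4.35% of 69 pairs were higher and 1.45% lower, 4 pairs in all, and without the barcodes over 5% myofibre 4.48% of 67 were higher and 1.49% lower. Tpm2 had 416 counts in pericyte- or smooth muscle-like cells, against 46.7 expected, 8.91-fold (7.64 to 10.4). Ldb3 had 34 there, against 7.0, 4.86-fold (3.0 to 7.82), and Myl1 had 8, against 32.7. In this class Tpm2 had a UMI in 44.4% of cells and stood at 714 CPM, against 31.8 CPM in endothelial-like cells. Ryr1 had 80 counts in conventional DC2-like cells, against 9.02 expected, 8.87-fold (6.74 to 11.6). By the split at resolution 2, Ryr1 stood at 70.1 CPM (54.9 to 88.1) in the 101 conventional DC2-like muscle cells, against 45.4 CPM (16.7 to 98.9) from 6 counts in the 17 such lung cells. In conventional DC1-like cells it stood at 64.9 CPM (26.1 to 134) from 7 counts in muscle, against 69.8 CPM (54.3 to 88.3) in lung. All 4 intervals overlapped, so a difference was not detectable at this depth. A Ryr1 UMI was read in 44.6% of the conventional DC2-like muscle cells and 33.7% of the conventional DC1-like lung cells. In B-like lung cells, at a median of 2020 UMIs, it was read in 3.63% of cells. Satellite-like cells held Mybpc1 at 168 CPM (110 to 244) from 27 counts, Jph1 at 55.9 CPM and Tnnt1 at 37.2 CPM. In endothelial-like cells these stood at 7.74, 5.53 and 1.38 CPM, but the satellite-like counts were under the 30 that the rule asks for. Schwann-like cells held 8 of the 61 muscle UMIs of Tnni1.

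**Figure D5:**
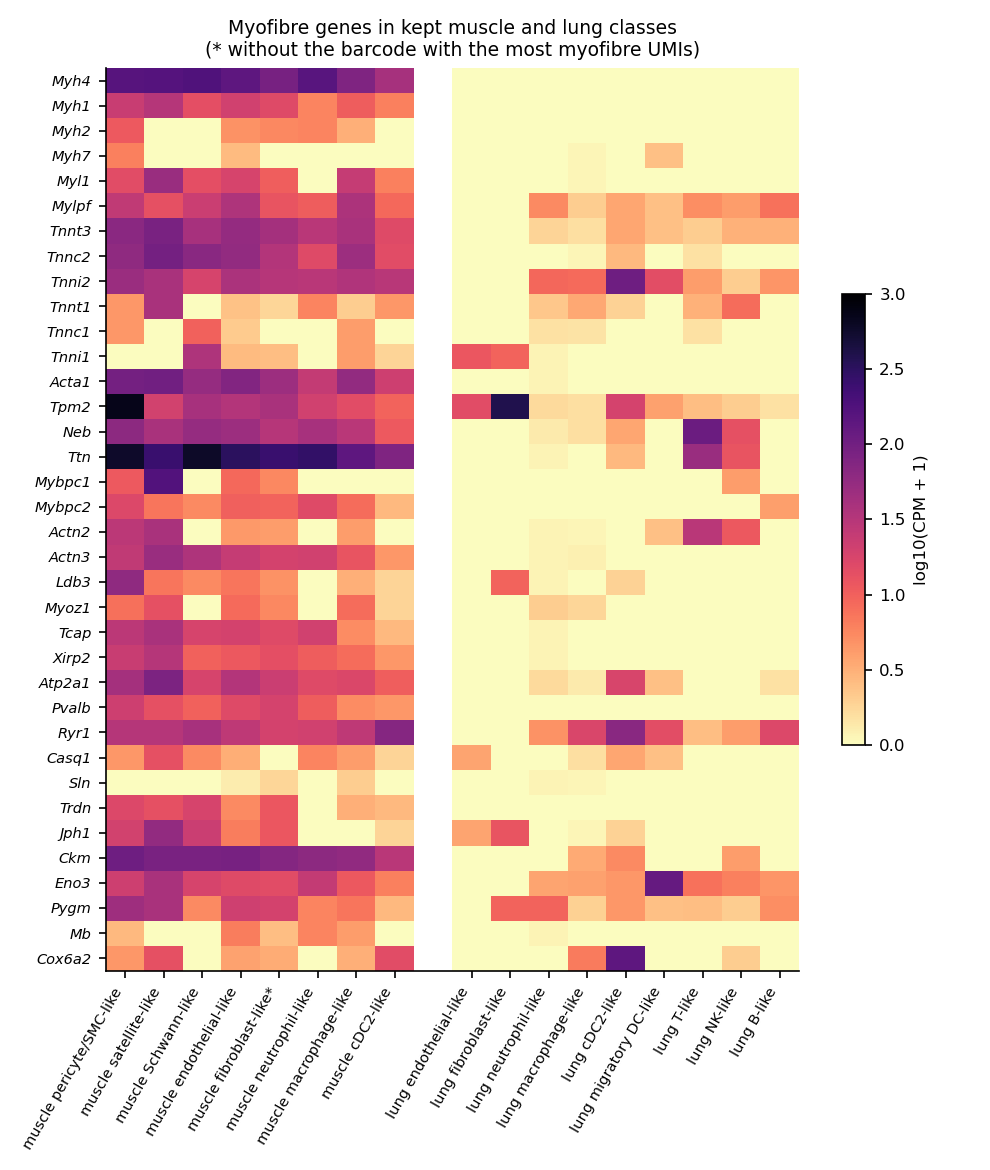
Colour gives log10(CPM + 1) of each of the 36 genes in the 8 kept muscle classes (left) and in 9 lung classes (right), the muscle fibroblast-like class without the 1 barcode. Myh4, Acta1, Ttn and Ckm are dark in every muscle class and pale in most lung classes. In lung Tpm2 in fibroblast-like, Cox6a2, Tnni2 and Ryr1 in the class named conventional DC2-like (mostly DC1-like cells at resolution 2), Eno3 in migratory DC-like and Neb, Ttn and Actn2 in T-like cells stand out.

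Lung was not empty of these genes, and what it held was uneven between classes. Tnni2 with 484 counts, Ryr1 with 358, Eno3 with 351 and Neb with 304 were the most counted there. Neb stood at 134.7 CPM (116 to 155) in a T-like lung cluster of 476 cells led by Foxp3, the factor of regulatory T cells, with a UMI in 22.3% of its cells, and Ttn stood at 66.0 CPM and Actn2 at 34.4 CPM there. In another T-like lung cluster, of 186 cells led by Lef1, Neb stood at 40.6 CPM. In B-like lung cells, at a median of 2020 UMIs against 2563.5 in the Foxp3 cluster, Neb, Ttn and Actn2 were at 0. The 101 conventional DC1-like lung cells found at resolution 2, the bulk of the class called conventional DC2-like above, held Cox6a2 at 159 CPM and Tnni2 at 119 CPM. Of these cells 13 held all 157 Cox6a2 UMIs of the class, and 38 held a Tnni2 UMI. Siglech, a marker of plasmacytoid dendritic cells, had a UMI in 16 of them. Eno3 stood at 122 CPM in migratory DC-like cells, from 83 counts, and Tpm2 at 382 CPM in the fibroblast-like lung cluster of 55 cells. An unnamed lung cluster of 124 cells, with Xist and Cldn4 as its top genes, was deep, at a median of 24920 UMIs. It held 149 of the 351 Eno3 counts, at 44.6 CPM, and 76 of the 484 Tnni2 counts, at 22.7 CPM. These levels were read in a library with no Myh4, Myh1 or Myh2 UMI and with 2 UMIs each of Acta1, Myl1, Tcap and Sln. Of the 36 genes 17 had under 10 counts in lung and 11 had at least 50, among them Mylpf with 97 and Pygm with 89. The source of these lung counts was not tested.

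Most other genes of the Z disc, M band and calcium release were also higher in mt-high barcodes. By the same rule 4.63% of all 16085 genes tested were higher and 11.2% lower, or 4.81% and 11.1% without the 1 barcode. Of 13 further Z disc, M band and cytoskeleton genes 10 were higher in mt-high barcodes and none lower, and 12 were higher without the 1 barcode. Tpm1, alpha-tropomyosin, stood at 737 CPM in mt-high and 296 CPM in mt-low barcodes and was called higher, and Dmd, dystrophin, at 477 CPM in mt-high and 296 CPM in mt-low barcodes and was not called. Of 9 genes of membrane and calcium release 6 were higher, and 8 without the 1 barcode, among them the triad protein Jph2 at 44.0 CPM in mt-high and 16.7 CPM in mt-low barcodes. Asph, which is read in many tissues, stood at 70.4 CPM in mt-high and 61.8 CPM in mt-low barcodes and was not called. Of 13 energy genes 4 were higher, and 7 without it. The general glycolytic enzymes were not called, with Aldoa at 578 CPM in mt-high and 471 CPM in mt-low barcodes and Gapdh at 281 CPM in mt-high and 521 CPM in mt-low barcodes. Of 6 slow isoforms and partners tested none was higher and Myl3 and Myoz2 were lower, while without the 1 barcode Myl2, Myl3 and Myoz2 were higher and none was lower. Tpm3 and Atp2a2, the most counted of that list, were not called either way. Of 4 developmental genes tested the embryonic myosin Myh3 was higher with just 7 mt-high and 3 mt-low counts, and Myod1, a myogenic factor of satellite cells, was lower at 4.0 CPM in mt-high and 10.4 CPM in mt-low barcodes. Of 8 satellite cell markers 4 were called higher and none lower, and their sum was 166 CPM in mt-high and 143 CPM in mt-low barcodes. The embryonic light chain Myl4 stood at 5.20 CPM in mt-high and 4.14 CPM in mt-low barcodes and was not called.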

How the data were processed

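Per the labels, 5′ droplet libraries were made from muscle and lung, and the authors deposited raw UMI counts per gene and barcode from Cell Ranger 7.0.1 on GRCm39, per the submitters' processing notes. Intron and strand settings are not given in the sources used here. Whether the 2 libraries came from 1 or several mice is not given either. The members and gene lists were chosen with earlier results of these data known.

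Counts were summed per barcode group and divided by the UMIs of genes not starting mt-, per 1000000. Levels carry exact Poisson, shares Clopper-Pearson and ratios conditional binomial 95% intervals, computed with scipy 1.17.1. They cover counting error only. All 36 members were named, and other genes by their lists, with the 2 most counted of each. Cells were clustered with leidenalg 0.10.2 at resolution 1 on 2000 variable genes, the 36 members left out, and named from fixed markers where at least 3 were 2-fold higher. Rebuilt names can differ from the study's. Simulated doublets, at 0.8% per 1000 barcodes, marked 100 muscle and 556 lung cells, which were removed. The calls and ratios were tested on simulated data. Factors from edgeR 4.0.16 and DESeq2 1.42.0 served as alternative scalings. Fold bounds against a group at 0 use a floor of 3 counts over that group. Promoter windows are from RefSeq on GRCm38.p6, and transcript lengths from GENCODE M21, both earlier annotations than the build of the counts. Neither was used to place counts.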

Additional observations from a re-analysis of the deposited data

How the results depend on the processing

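The summed log2 ratio of mt-high to mt-low muscle barcodes (2.05) was 1.16 at a limit of 5% mt- UMIs, 2.78 at 20%, 1.20 with mt- genes in the total, which shifts every gene by -0.85, 2.14 without Rn18s, 2.00 with TMM factors, 2.49 without barcodes over 5% myofibre, 2.46 with 500 UMIs per barcode and 3.01 without the 1 barcode with the most myofibre UMIs. It was positive under all 9 alternatives, and between 19 and 34 of the 36 genes were called higher under 10. The 34, of 35 tested, came without the 1 barcode, against 4.81% of all genes. Without barcodes over 5% myofibre 33 of 35 were higher, against 4.84% of all genes. For the other alternatives the share of all genes was not computed, so those counts have no background. The log2 ratio of kept muscle to lung cells (4.86) was 4.98 at 5% and 5.0 at 20%, 4.58 with TMM factors, 4.59 with medians of ratios, 3.65 without barcodes over 5% and 3.86 without the 1 barcode. The Myh4 share (86.8%) was 84.6% without barcodes over 5% and 85.1% with 500 UMIs per barcode. The fast troponin share (96.4%) was 96.9% and 97.3% under the same settings, 97.4% without the 1 barcode, 95.8% from troponin T and 97.0% from troponin C. The median class level (1268 CPM) was 977 CPM without barcodes over 5% and 999 CPM without the 1 barcode, which also brought the 28 pairs off the common mix to 4, as did leaving out barcodes over 5%. The alternatives without the 1 barcode, and that last one, were chosen after seeing the data. No cause of these shifts was tested. No paired analysis was possible because there was 1 library per tissue. Depth limits the slow genes, with 18 muscle UMIs of Myh7.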
